A study of Homo sapiens with 24 samples.

Results

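Histone genes were read on 36 catalog probes of 34 genes, out of 17535 catalog probes that carry 15102 gene names on the array. The members were every catalog probe whose gene name in the array design begins with the symbols of replication-dependent histones (HIST1H to HIST4H) or of histone variants (H1F, H2AF, H3F). They comprised 28 probes of 27 replication-dependent genes and 7 probes of 6 variant genes (H1F0, H1FNT, H2AFB2, H2AFV with 2 probes, H3F3A and H3F3B). The remaining probe reads H1FX-AS1, a noncoding antisense RNA that matched the name pattern but encodes no histone, and it was kept out of both classes. Of the replication-dependent probes, 2 read linker histones H1, 7 read H2A, 3 read H2B, 7 read H3 and 9 read H4.

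The cells were MRC5, a line of human lung fibroblasts. They were either untreated (control) or exposed to 0.2 mM hydrogen peroxide for 2 h, a treatment called oxidative stress (OS). Whole-cell RNA (total RNA) and RNA of 3 pools of sucrose gradient fractions were measured, namely the untranslated pool (fractions 1 to 9), the low pool (fractions 10 to 14) and the high pool (fractions 15 to 23). Each of the 8 groups held 3 single-color arrays, and each of 3 slides held 1 array of every group. According to the study's methods each repeat used its own RNA preparation. Separate cultures are not named, so the p-values measure the spread between these preparations and arrays. The labels of control untranslated replicates 1 and 2 share 1 base identifier, and whether these 2 arrays had separate preparations is not stated. In such bulk RNA, fewer cells of a kind and less RNA per cell cannot be told apart.

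Histone proteins form the nucleosome, around which DNA is wrapped, and linker histones H1 bind the DNA between nucleosomes. Replication-dependent histone genes are made in S phase, when new DNA has to be packaged. Their mRNAs typically end in a conserved stem-loop instead of a poly(A) tail, and they are rapidly degraded when DNA synthesis stops. Variant genes are transcribed through the cell cycle as ordinary polyadenylated mRNAs, and their proteins replace the canonical histones outside of replication. The RNA was labelled from an oligo-dT primer, so the signal of a gene whose mRNA mostly lacks a poly(A) tail comes from those transcripts that the primer could still copy. The share of such transcripts was not measured.

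The stem-loop itself lay within 2 of the member probes. The histone stem-loop, a pattern of 16 bases in which paired ends enclose a run of T (searched on both strands, with the pairs at some positions free), was present in 2 of the 28 replication-dependent probes (7.14%), in 0 of the 7 variant probes and in 4 of all 17535 catalog probes (0.0228%). The last 30 bases of both probes are shown, as on the mRNA strand, because they place the probes at the mature end of the message, with the stem-loop in capitals.

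HIST2H3A: cgtatccaaaaGGCTCTTTTCAGAGCCacc
HIST1H4K: ctatcaacaaaaGGCCCTTTTTAGGGCCcc

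The HIST2H3A probe maps to chr1:149824626-149824685 and the HIST1H4K probe to chr6:27798954-27799013 (GRCh37, the build of the array design). The polyadenylation signal AATAAA, also searched on both strands, was found in 1 of the 28 replication-dependent probes (HIST2H2AC, 3.57%) and in 11.4% of all catalog probes. A pattern match describes these letters and not a functional site.

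Variant and replication-dependent H3 genes code for nearly the same protein, so their probes are close in sequence. The H3F3A and H3F3B probes are shown against the stretches of replication-dependent H3 probes that align to them without gaps, because the values of both H3 classes are set side by side in what follows. Capitals mark bases that differ from the variant of the same set.

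H3F3A: cctgtgtgctatccatgccaaacgtgtaac
HIST1H3J: cctCtgtgctatTcaCgccaaGcgtgtCac
HIST1H3C: TctgtgCgctatTcaCgcTaaacgCgtCac

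H3F3B: ttccagaggttggtgagggagatcgcgcag
HIST1H3F: ttccagCgTCtggtACgTgagatcgcgcag
HIST1H3H: ttTcagCgTCtggtgCgTgagatcgcgcag

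Over the whole aligned stretch, H3F3B shared 37 of 45 bases with HIST1H3F and 39 of 48 bases with HIST1H3H. H3F3A shared 41 of 49 bases with HIST1H3J and 23 of 31 bases with HIST1H3C. Within the replication-dependent class the overlap was longer in places, with a run of 30 identical bases between the HIST1H3F and HIST1H3H probes and of 23 between HIST1H4F and HIST2H4B. Of the 630 pairs of member probes, 10 shared a run of at least 14 bases, so the signals of such paralogs may be mixed and were not separated here.

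RefSeq promoters (GRCh38.p14, a window over the start of each gene) were found for 24 replication-dependent and 5 variant genes. The TATA box TATAAA was present on either strand in 17 of the 24 replication-dependent promoters (70.8%) and in 1 of the 5 variant promoters, against 11.5% of all 35116 promoters. CCAAT was present in 19 of the 24 (79.2%) and in all 5 variant promoters, against 34.6% of all promoters. The 2 patterns can share no more than an end base. The probes themselves had a median GC content of 53.3% in the replication-dependent class and 45% in the variants, against 43.3% over all catalog probes.

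Levels are given as log2 of the processed signal after quantile normalization over the catalog probes, so that a level is relative to the other catalog probes of the same RNA pool and is not an amount per cell. Between 30 and 36 members were well above background on each array. The probes of HIST1H2BA, a testis-type H2B, and of the H4 genes HIST1H4G and HIST2H4A were well above background on all 3 arrays of no group and were not tested. H2AFB2, a short H2A variant, and the second H2AFV probe (A_23_P316487) were not tested in total RNA or in the untranslated pool for the same reason. Replicate 3 of the OS low pool stood apart as a whole, with 95.4% of catalog probes well above background, against 43.4 to 67.7% on the other 23 arrays. The fibroblast markers COL1A1 and THY1 were bright, at 17.8 and 15.8 in control total RNA, while the endothelial marker VWF was not well above background on any array of total RNA. The epithelial marker EPCAM was well above background on 2 of the 3 OS arrays of total RNA and on none of control. Of the epithelial, endothelial and blood marker lists, each with 3 catalog probes, 2, 1 and 1 probes were tested in total RNA. These were well above background on all 3 arrays of control or of OS, and none was called. None of the 6 fibroblast probes tested (5 of 11 genes listed) was called in total RNA. In the untranslated pool 4 were called higher upon OS and 0 lower (median 1.61), against 15.8% and 15.7% of all catalog probes. The counts were 3 and 0 in the low pool (median 1.13), against 4.42% and 5.45%. In the high pool they were 4 and 0 (median 0.53), against 3.57% and 2.83%. The part of these differences in the histone values, which are relative to all catalog probes of a pool, was not tested.

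**Figure D1:**
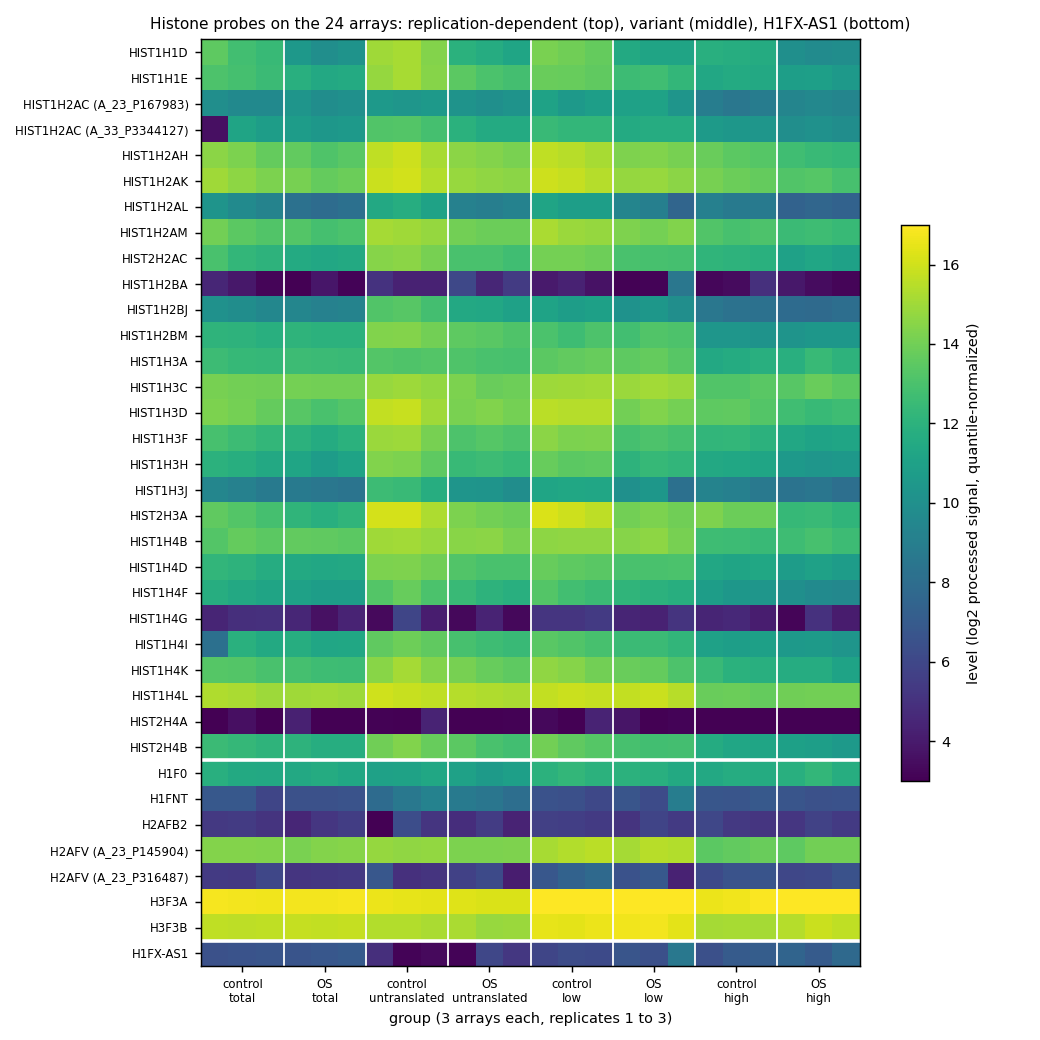
Level of each of the 36 histone probes (rows) on the 24 arrays (columns, 3 per group), as log2 processed signal after quantile normalization, with replication-dependent genes at the top, variants in the middle and H1FX-AS1 at the bottom. The dark cell of HIST1H2AC (A_33_P3344127) on replicate 1 of control total RNA is at 3.55, against 11.15 and 10.80 on the other 2 arrays of its group.

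In total RNA, a subset of replication-dependent histone mRNAs was lower upon OS, and no variant was called. Of 25 replication-dependent probes tested, 10 were called lower and 0 higher at a Benjamini-Hochberg adjusted p under 0.05 from limma over all probes tested, and 15 were not called. Among all 10630 catalog probes tested, 3.06% were called lower and 3.07% higher. The median difference (OS minus control, log2) was -0.54 over the replication-dependent probes, -0.03 over the 5 variant probes tested and -0.02 over all catalog probes. At an unadjusted p under 0.05, 15 replication-dependent probes were lower, and 0 of either class were higher by limma. At this threshold 876 of the 10630 catalog probes were lower and 791 higher.

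HIST1H1D, which encodes a linker histone, showed the lowest value of all members. Its levels were 13.55, 12.76 and 12.42 on the control arrays and 10.48, 9.93 and 10.18 upon OS. The groups were far apart, with a difference of -2.71 ± 0.26 (SE, n = 3 arrays per group), which is 6.54-fold lower (adjusted p = 8.29e-07, limma). The second linker histone, HIST1H1E, read 13.10, 12.88 and 12.53 in control and 11.84, 11.45 and 11.56 upon OS. It was 2.33-fold lower (adjusted p = 0.000478, limma), again without overlap between the groups.

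Of the core histones, HIST1H2AL, an H2A gene, read 10.23, 9.70 and 9.25 in control and 8.21, 7.95 and 8.19 upon OS, and was 3.05-fold lower (adjusted p = 0.00371, limma). HIST2H3A, the H3 gene whose probe holds the stem-loop shown above, read 13.59, 13.26 and 12.86 in control and 12.14, 11.81 and 12.15 upon OS, and was 2.31-fold lower (adjusted p = 0.00182, limma). HIST2H2AC, another H2A gene, was 1.90-fold lower (adjusted p = 0.00322, limma), from 12.99, 12.25 and 12.03 to 11.57, 11.42 and 11.50. In all of these genes every OS array was below every control array, which held for 28.1% of the catalog probes tested. HIST1H1D, HIST1H1E, HIST1H2AL, HIST2H3A and HIST2H2AC stayed called under all 20 alternative settings tried for this contrast.

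The other 5 called probes, HIST1H2AK, HIST1H3D, HIST1H3F, HIST1H3H and HIST1H4D, had differences from -0.80 to -0.52, and each lost its call under at least 1 of those settings. The count of 10 fell to 5 without replicate 1 or replicate 2 of control total RNA or without replicate 2 of OS total RNA, and to 6 without replicate 3 of OS total RNA. By family the median difference was -1.97 for H1, -0.72 for H2A, -0.72 for H3, -0.49 for H4 and -0.24 for the 2 tested H2B probes. HIST1H3C was an H3 gene at the same level in both conditions. It read 14.15, 13.99 and 13.96 in control and 14.09, 14.02 and 13.99 upon OS, with a difference of 0.00 ± 0.13 (SE).

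Of the 7 positive differences in the class, 3 were on probes that lay in a dim area of 1 array. On replicate 1 of control total RNA an area of 2848 spots (4.52% of the array), between rows 94 and 234 and columns 1 and 30, was dim against the other arrays of its group. The probe A_33_P3344127 of the H2A gene HIST1H2AC and those of HIST1H4I and HIST1H4B lay in it. HIST1H2AC (A_33_P3344127) read 3.55 there and 11.15 and 10.80 on the other control arrays, against 10.75, 10.39 and 10.53 upon OS. With the spots of such areas set to missing, its difference in total RNA turned from 2.06 to -0.42 (adjusted p = 0.207, limma), and that of HIST1H4I turned from 0.92 to -0.25 (adjusted p = 0.679, limma). The number of replication-dependent probes with a positive difference then dropped from 7 to 4, and 10 were still called lower.

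**Figure D2:**
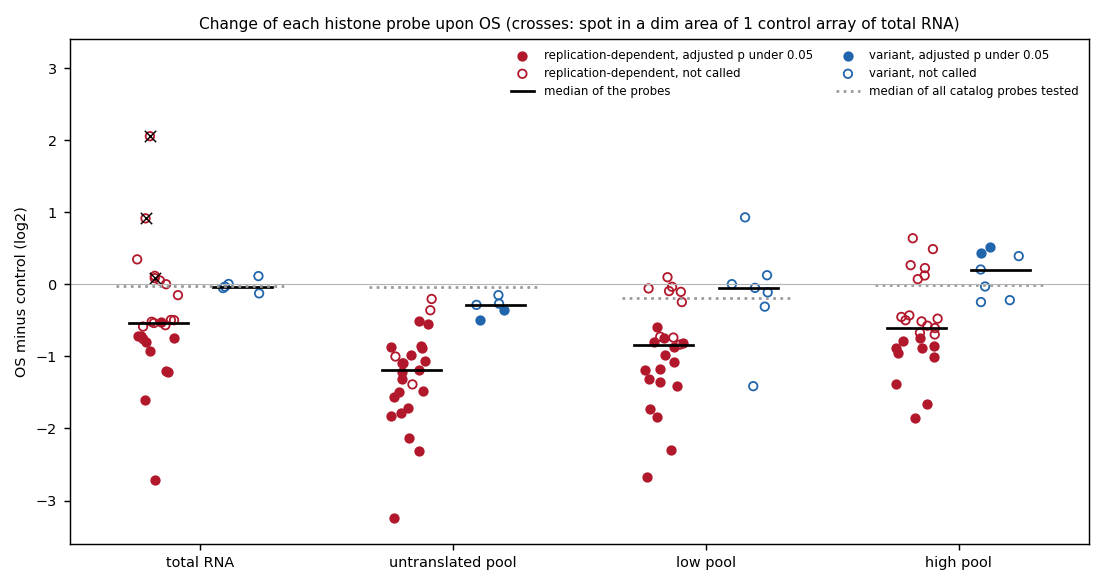
Difference between OS and control (log2, vertical axis) of each tested histone probe in total RNA and in the 3 pools, with filled points at an adjusted p under 0.05, black bars at the median of each class and dotted lines at the median of all catalog probes tested. The replication-dependent medians are -0.54, -1.19, -0.84 and -0.61 from left to right, and the crosses mark the 3 probes in the dim area of 1 control array.

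The variant mRNAs were nearly level in total RNA. H3F3A and H3F3B both encode the replacement H3 that is deposited outside of S phase. H3F3A read 16.79, 16.78 and 16.72 in control and 16.75, 16.75 and 16.81 upon OS, a difference of 0.01 ± 0.11 (SE). H3F3B read 15.65, 15.63 and 15.63 in control and 15.77, 15.72 and 15.77 upon OS, and its difference of 0.12 ± 0.13 (SE) was not called (adjusted p = 0.85, limma). H1F0, the linker histone of cells that have stopped dividing, read 11.81, 11.48 and 11.46 in control and 11.43, 11.59 and 11.35 upon OS. H2AFV (A_23_P145904), an H2A.Z form found at promoters, differed by -0.05 ± 0.15 (SE), and H1FNT, a linker histone of the testis, by -0.03 ± 0.48 (SE).

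In the untranslated pool most replication-dependent mRNAs were lower upon OS. Of 25 probes tested, 21 were called lower and 0 higher, against 15.7% of all catalog probes called lower and 15.8% called higher. All 25 differences were negative, with a median of -1.19, while the median of all catalog probes was -0.04. In each of the 25 probes the difference was more negative than in total RNA. Of the 21 called, 11 were not called in total RNA and 5 of these (HIST1H2BM, HIST1H3C, HIST1H4B, HIST1H4K and HIST1H4L) were called in no other pool. With the dim spots set to missing, HIST1H2AC (A_33_P3344127, -1.39, adjusted p = 3.7e-06, limma) and HIST1H4I (adjusted p = 0.000269, limma) were called as well, which made 23 of 25.

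HIST1H1D was again the lowest. It read 15.03, 15.17 and 14.42 in control and 11.96, 11.67 and 11.25 upon OS, and was 9.49-fold lower (adjusted p = 1.05e-07, limma). HIST1H2AL was 4.96-fold lower, from 11.43, 11.73 and 11.09 to 9.13, 9.01 and 9.19. In both genes the lowest control array was above the highest OS array, as in 28.8% of the catalog probes tested in this pool.

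HIST1H3J read 12.58, 12.50 and 11.73 in control and 10.30, 10.27 and 9.84 upon OS, and was 4.40-fold lower (adjusted p = 0.00067, limma). HIST1H2BJ, an H2B gene, read 13.22, 13.34 and 12.83 in control and 11.48, 11.40 and 11.02 upon OS. It was 3.55-fold lower in this pool (adjusted p = 1.37e-06, limma), although its difference of -0.54 in total RNA was not called. HIST1H1E was 3.29-fold lower in the untranslated pool, from 14.81, 15.18 and 14.48 to 13.47, 13.04 and 12.82. HIST2H3A was 3.44-fold lower, from 16.10, 16.11 and 15.27 to 14.22, 14.03 and 13.88.

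All 5 variant probes tested in the untranslated pool were also negative, with a median of -0.28, and 2 were called. H2AFV (A_23_P145904) read 14.80, 14.69 and 14.75 in control and 14.23, 14.25 and 14.30 upon OS, a difference of -0.49 ± 0.14 (SE, adjusted p = 0.0178, limma). H3F3B fell by 0.35 on the log2 scale (adjusted p = 0.0478, limma), from 15.41, 15.37 and 15.24 to 15.23, 14.83 and 14.90. The call of H3F3B held in 8 of 20 alternatives (adjusted p up to 0.227, limma) and that of H2AFV in 15. H3F3A differed by -0.27 ± 0.10 (SE) and H1F0 by -0.28 ± 0.16 (SE), neither of which was called. Without replicate 3 of OS low, an array outside this contrast, H3F3A was called as well (adjusted p = 0.0265, limma).

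In the low pool 16 of 25 replication-dependent probes were called lower and 0 higher, against 5.45% of all catalog probes called lower and 4.42% called higher. The median difference was -0.84, and that of all catalog probes was -0.18. HIST1H1D was 6.35-fold lower, from 14.19, 13.97 and 13.71 to 11.50, 11.17 and 11.18. HIST1H2AL was 4.94-fold lower, from 11.17, 10.87 and 10.85 to 9.38, 9.05 and 7.56, where the last value is from the array that stood apart. HIST2H3A (3.58-fold), HIST1H3J (3.33-fold) and HIST1H3F (2.67-fold) were the next lowest. HIST1H3J read 8.17 on that same array and 10.03 and 10.43 on the other OS arrays, and without it its difference moved from -1.74 to -1.06, above that of HIST1H3F (-1.37). None of the 7 variant probes tested was called, and their median was -0.05, with H3F3A at 0.00 ± 0.12 (SE) and H3F3B at 0.13 ± 0.13 (SE).

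With replicate 3 of OS low left out of the whole fit, 15 histone probes were called lower in the low pool. A fit of the 2 low groups alone, with all their arrays, called 1 (HIST1H1D).

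In the high pool the medians of the classes had opposite signs. Of 25 replication-dependent probes, 10 were called lower and 0 higher, with a median of -0.61, and of 7 variant probes 2 were called higher and 0 lower, with a median of 0.21. Over all catalog probes 2.83% were called lower and 3.57% higher, with a median of -0.01. HIST1H1D was 3.62-fold lower, from 11.81, 11.71 and 11.63 to 9.96, 9.77 and 9.85 (adjusted p = 0.000106, limma). HIST2H3A was 3.15-fold lower, from 14.27, 13.87 and 13.86 to 12.37, 12.50 and 12.16, and HIST1H2AL was 2.60-fold lower, from 9.12, 8.70 and 8.73 to 7.40, 7.59 and 7.41. HIST1H2AH (2.01-fold) and HIST2H2AC (1.93-fold) followed.

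H3F3B read 15.13, 15.16 and 15.12 in control and 15.42, 15.88 and 15.67 upon OS, and was 1.43-fold higher (adjusted p = 0.0191, limma). H3F3A read 16.61, 16.70 and 16.92 in control and 17.01, 17.30 and 17.21 upon OS, and was 1.35-fold higher (adjusted p = 0.0206, limma). H1F0 read 11.43, 11.65 and 11.62 in control and 11.84, 12.30 and 11.74 upon OS, without overlap (which held for 15.4% of catalog probes tested) but without a call (0.39 ± 0.17, adjusted p = 0.259, limma). The calls of H3F3A and H3F3B were lost when replicate 1 or 2 of control high, or replicate 2 or 3 of OS high, was left out, and under scaling to the 75th percentile. The 10 lower calls dropped to 5 without replicate 1 of control high and to 6 without replicate 2 of control high or replicate 3 of OS high. Without replicate 3 of OS low, an array outside this contrast, HIST1H2AC on A_23_P167983 (adjusted p = 0.00476, limma) and HIST1H3A (adjusted p = 0.0205, limma) were called higher. In that fit HIST1H1E, HIST1H3J and HIST1H4D were newly called lower.

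**Figure D3:**
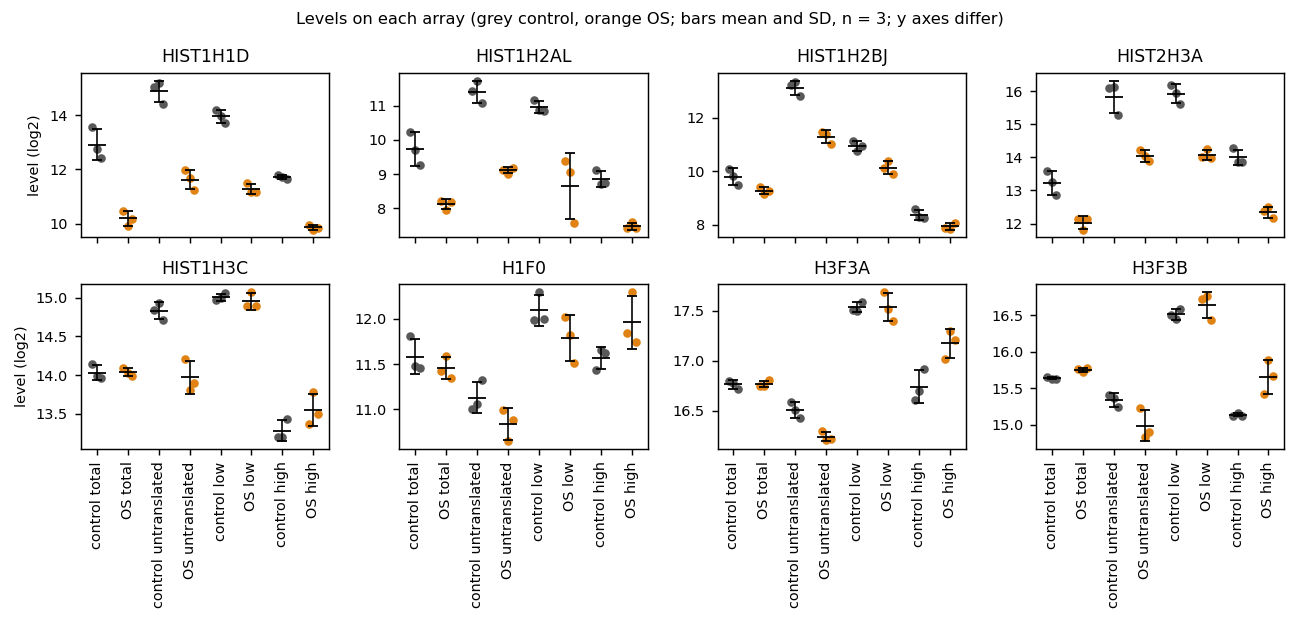
Levels of 8 histone genes on each array (log2 processed signal, quantile-normalized), with control in grey, OS in orange and bars for the mean and SD of 3 arrays; the vertical axes differ between genes. HIST1H1D and HIST2H3A are lower upon OS in total RNA and in all 3 pools, HIST1H3C is lower in the untranslated pool, and H3F3A and H3F3B are higher in the high pool.

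Over total RNA and the 3 pools, 8 replication-dependent probes (HIST1H1D, HIST1H2AK, HIST1H2AL, HIST1H3D, HIST1H3F, HIST1H3H, HIST2H2AC and HIST2H3A) were called lower each time. Called lower in none of them were 4 probes, namely both HIST1H2AC probes, HIST1H3A and HIST1H4I, of which A_33_P3344127 and HIST1H4I lay in the dim area. Of all catalog probes tested, 3.06% were called lower in total RNA. In the untranslated, low and high pools 15.7%, 5.45% and 2.83% were. The shares of catalog probes called lower in all 4 or in none were not computed. The class median level was 12.94, 12.39 and 12.26 in control total RNA and 11.97, 11.63 and 11.73 upon OS. In the untranslated pool it was 14.47, 14.55 and 14.11 in control and 13.22, 13.00 and 12.90 upon OS. OS arrays lay below control arrays in both cases. In the low pool the class medians were 14.01, 13.74 and 13.71 against 12.93, 12.96 and 12.86, and in the high pool 11.59, 11.61 and 11.63 against 10.93, 11.00 and 10.76.

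The 2 probes of HIST1H2AC, an H2A gene, start 14.4 kb apart. A_33_P3344127 lies at chr6:26124461-26124520 and A_23_P167983 downstream at chr6:26138822-26138881 (GRCh37). Their first 30 bases are shown because the values of the 2 probes differed.

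A_33_P3344127: atgtctggacgtggtaagcaaggaggcaaa
A_23_P167983: gcattatgcaaatgcattatattttatgta

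The downstream probe had no called difference upon OS in total RNA (0.35 ± 0.19, SE) or in the high pool (0.64 ± 0.19, SE, adjusted p = 0.0526, limma). It was called higher in the high pool with the replicate number as a block (adjusted p = 0.036, limma). The same held in a fit of only the groups compared (adjusted p = 0.0371, limma). In the high pool the downstream probe read 8.94, 8.53 and 8.89 in control and 9.37, 9.55 and 9.35 upon OS, without overlap, whereas A_33_P3344127 read 10.62, 10.39 and 10.34 in control and 9.91, 10.09 and 9.85 upon OS. In the untranslated pool both values were negative, at -0.36 ± 0.18 (SE) for the downstream probe and -1.39 for A_33_P3344127. The difference between the 2 probes was not tested.

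In control cells, the replication-dependent mRNAs were low in the high pool relative to the untranslated pool. Of 25 probes, 24 were called lower in the high pool and 0 higher, and the median of high minus untranslated was -2.57, against 0.35 over all catalog probes, of which 31% were called lower and 42.2% higher. The lowest were the H2B genes. HIST1H2BJ read 13.22, 13.34 and 12.83 in the untranslated pool and 8.58, 8.28 and 8.24 in the high pool, 27.1-fold lower (adjusted p = 1.57e-13, limma). HIST1H2BM read 14.34, 14.42 and 14.01 in the untranslated and 10.36, 10.33 and 10.19 in the high pool, 15.6-fold lower. These 2 H2B genes and the 2 linker genes HIST1H1E (10.3-fold) and HIST1H1D (8.91-fold), with HIST1H3J (9.61-fold), were the 5 lowest.

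Over the pools of control cells the median level of the class was 14.38 ± 0.23 (SD, n = 3) in the untranslated pool, 13.82 ± 0.17 (SD, n = 3) in the low pool and 11.61 ± 0.02 (SD, n = 3) in the high pool. In the same order, the median of 5 variant probes was 14.75 ± 0.06 (SD, n = 3), 15.37 ± 0.18 (SD, n = 3) and 13.64 ± 0.16 (SD, n = 3). On each of these arrays that median was the reading of H2AFV (A_23_P145904), so it gives the profile of 1 gene. The other variants differed from it. H1F0 was 1.36-fold higher in the high than in the untranslated pool (adjusted p = 0.0288, limma), while H2AFV (A_23_P145904) was 2.15-fold lower and H1FNT 3.42-fold lower. H3F3A and H3F3B were not called, at 0.23 ± 0.11 (SE) and -0.20 ± 0.13 (SE), and their direction depended on the normalization. Both were called higher in the deposited table, at 0.57 and 0.30, and both lower under scaling to the 75th percentile, at -1.92 and -1.39. H1FX-AS1, which was well above background on no array of the untranslated pool, was at least 1.15-fold higher in the high pool (adjusted p = 0.000247, limma), from measured means of 3.80 and 6.87. Under scaling to the 75th percentile the replication-dependent median was -3.06, and the variant median moved from 0.02 to -1.65.

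In 12 histone probes the balance between the high and the untranslated pool changed upon OS, each time in favour of the high pool. The shift is the OS minus control difference of the high minus untranslated value. Of 25 replication-dependent probes 9 had a called shift toward high and 0 a called shift toward untranslated, and of 7 variant probes 3 and 0, against 8.04% and 8.03% of all catalog probes. The median shift was 0.67 for the replication-dependent probes, all 25 of which were positive, 0.68 for the variants and 0.02 for all catalog probes. The high minus untranslated value of the replication-dependent class, taken between arrays of equal replicate number, was -2.37, -2.87 and -2.31 in control and -1.87, -1.90 and -1.73 upon OS, so the class remained lower in the high pool. In control the high and untranslated arrays of equal number lay on different slides. The median of this value over the 7 variant probes was -0.28, -0.21 and -0.00 in control and 0.29, 0.30 and 0.86 upon OS. It fell on different probes. For replicate 3 of control and replicates 1 and 2 of OS it fell on H2AFB2 or the second H2AFV probe. Both were well above background on no array of the untranslated pool.

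HIST1H2BJ had high minus untranslated values of -4.64, -5.05 and -4.59 in control and -3.58, -3.57 and -2.94 upon OS, a shift of 1.40 ± 0.26 (SE, adjusted p = 0.00249, limma). HIST1H3C had values of -1.64, -1.73 and -1.28 in control and -0.84, -0.03 and -0.40 upon OS, a shift of 1.13 ± 0.18 (SE, adjusted p = 0.000756, limma). HIST1H2BM shifted by 0.96 ± 0.22 (SE, adjusted p = 0.00847, limma). These 3 kept their call in all 26 alternatives tried, and for each of them the control and OS values did not overlap, as in 21.5% of the catalog probes tested.

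HIST1H1D shifted by 1.39 and HIST1H1E by 1.05, with high minus untranslated values of -3.22, -3.46 and -2.79 in control and a mean of -1.76 ± 0.32 (SD, n = 3) upon OS for the first. In HIST1H1D the level fell in both pools and fell further in the untranslated pool. The downstream HIST1H2AC probe shifted by 1.00, and the other called replication-dependent probes were HIST1H3A, HIST1H4B and HIST1H4L at 0.67 to 0.73. Of 26 alternatives, the call held in only 10 for HIST1H3A and 9 for HIST1H4B, and in 24 for HIST1H4L. HIST1H3J had the largest value of the class, 1.44 ± 0.56 (SE), but was not called (adjusted p = 0.126, limma). It was called with the replicate number as a block (adjusted p = 0.0408, limma), in a fit of only the groups compared (adjusted p = 0.0279, limma) and without replicate 3 of OS low (adjusted p = 0.00442, limma), an array outside this contrast. HIST2H3A, which fell by 1.78 in the untranslated pool and by 1.66 in the high pool on the log2 scale, had a shift of 0.13 ± 0.32 (SE).

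Among the variants, H3F3B had high minus untranslated values of -0.28, -0.21 and -0.12 in control and 0.19, 1.05 and 0.76 upon OS, a shift of 0.87 ± 0.18 (SE, adjusted p = 0.00537, limma). H3F3A went from 0.02, 0.20 and 0.49 to 0.72, 1.09 and 0.99, a shift of 0.70 (adjusted p = 0.00743, limma). H2AFV (A_23_P145904) went from -1.31, -1.06 and -0.94 to -0.72, -0.21 and -0.29, also a shift of 0.70 (adjusted p = 0.0414, limma), but this call held in only 10 of 26 alternatives. H1F0 had a shift of 0.68 that was not called (adjusted p = 0.0884, limma), though it was without replicate 3 of OS low (adjusted p = 0.0312, limma). The values for H1FNT (-0.07), H2AFB2 (-0.13) and the second H2AFV probe (0.06) came with standard errors of 0.68 to 0.83. The number of histone probes called in the shift dropped from 12 to 7 without replicate 1 or 2 of control untranslated, replicate 2 or 3 of OS untranslated, or replicate 2 of OS high, each on its own.

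**Figure D4:**
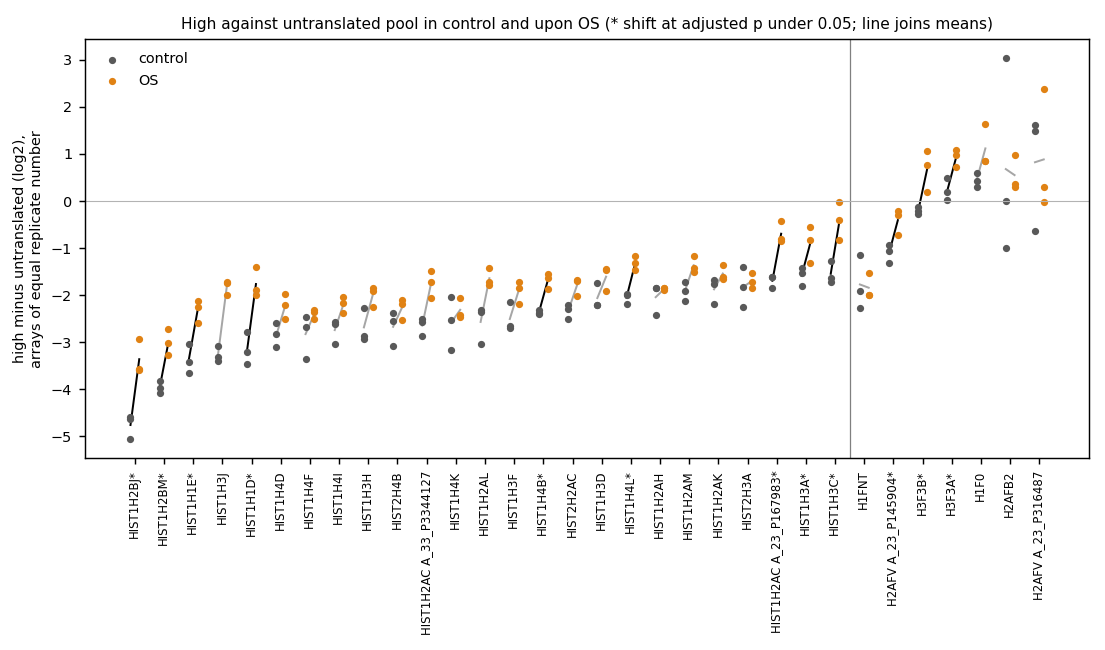
High minus untranslated value (log2, vertical axis) of each tested histone probe between arrays of equal replicate number, in control (grey) and upon OS (orange), with lines joining the means, black and starred where the shift had an adjusted p under 0.05. All 25 replication-dependent probes, left of the vertical line, move upward upon OS and stay below 0, and H3F3B crosses 0.

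Genes that act on histone mRNAs and proteins were taken from 3 lists. A list of 24 factors of histone mRNA 3′ end processing and decay had 14 genes on catalog probes. None of its 12 tested probes was called in total RNA by limma (0 also at an unadjusted p under 0.05), and their median was 0.03. Of 29 histone chaperones and deposition factors, 19 were found, and none of their 25 probes was called in total RNA, with a median of -0.05. At an unadjusted p under 0.05 from limma 1 was higher and 2 were lower, against 791 and 876 of the 10630 catalog probes. Of 25 S phase genes, 10 were found on 12 probes, of which 1 was called higher and 0 lower, against 3.07% and 3.06% of all catalog probes. This was CCNE1, the cyclin that drives entry into S phase, at 0.56 ± 0.15 (SE, adjusted p = 0.0245, limma). The large positive values of PCNA (A_33_P3258612, 3.31), NPM1 (A_23_P214037, 2.85) and RBBP4 (A_24_P468810, 1.46) were on probes inside the dim area of replicate 1 of control total RNA, and none was called. The MCM4 probe A_23_P370989 lay in a second dim area, of 284 spots, on replicate 3 of control total RNA, which held 0 histone probes.

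In the untranslated pool, where 15.8% of catalog probes were called higher and 15.7% lower, 6 of 11 S phase probes were called higher and 0 lower (median 0.44). Of 20 chaperone probes there 7 were higher and 4 lower (median 0.34), and of 11 probes of processing and decay factors 1 was higher and 4 were lower (median -0.35). In the low pool 3 of 12 S phase probes were called higher and 0 lower, against 4.42% and 5.45% of catalog probes. Of 25 chaperone probes 1 was called in each direction there, and of 11 probes of processing and decay factors 1 was lower and 0 higher. In the high pool, where 3.57% of catalog probes were called higher and 2.83% lower, 1 of 12 probes of processing and decay factors was higher and 0 lower. Of 25 chaperone probes 1 was lower and 0 higher. None of the 12 S phase probes was called in either direction by limma (0 also at an unadjusted p under 0.05).

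In the shift, where 8.04% of catalog probes were called toward high and 8.03% toward untranslated, these lists were mixed. The shift compares relative levels, so by itself it does not tell in which pool a level changed. Of 12 probes of processing and decay factors, 4 had a called positive shift. These were the cap-binding subunit NCBP2 (0.84), the cleavage factors CSTF3 (0.71) and CSTF1 (0.58) and the decay factor LSM1 (0.66). The cleavage endonuclease CPSF3 had a called negative shift (-0.65). Of 25 chaperone probes, that of HJURP, which deposits the centromeric H3, had a called positive shift (1.08). Called negative shifts were those of ATRX (-1.25), NAP1L1 (-1.09), NPM1 (A_32_P49423, -1.05), UBN1 (-0.90) and IPO4 (-0.68). Of 12 S phase probes, those of the replicative helicase subunits MCM5 (-1.04) and MCM2 (-0.94) also had a called negative shift, while none of the 12 was called in the high pool itself. The medians were 0.48 for processing and decay, -0.25 for the chaperones and -0.32 for the S phase genes.

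**Figure D5:**
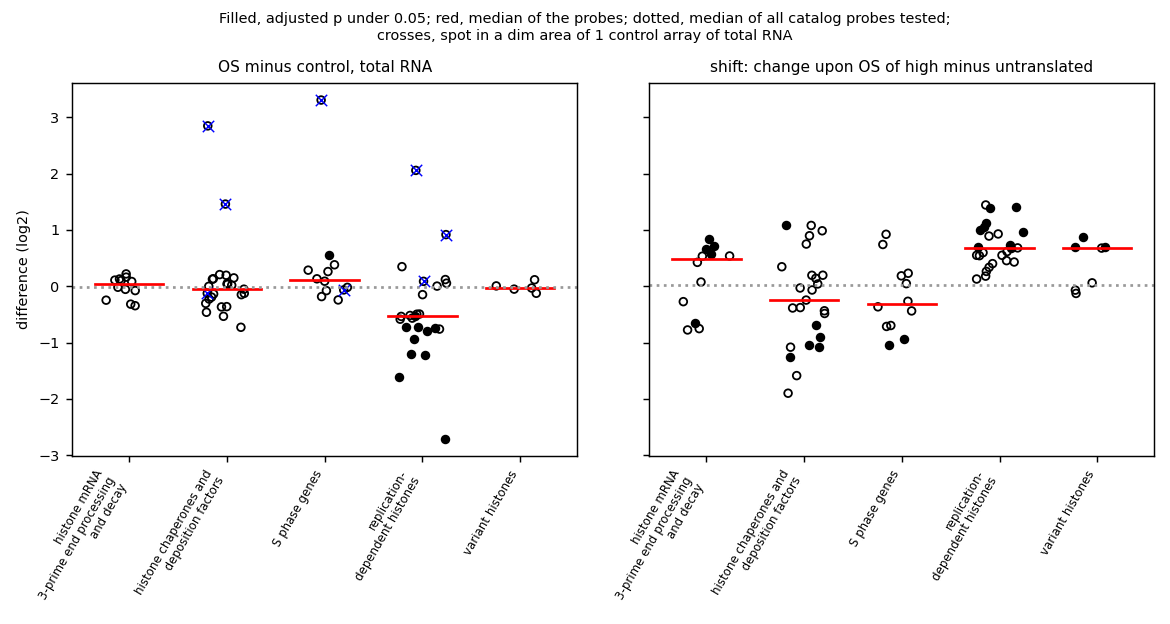
Difference between OS and control in total RNA (left) and shift (right), in log2 units, for each tested probe of 3 gene lists and of both histone classes. Filled points have an adjusted p under 0.05 and red bars are medians. Crosses mark probes in a dim area of a control array of total RNA (replicate 1, and for MCM4 replicate 3). In total RNA the replication-dependent class holds 10 of the 11 filled points, and in the shift the lists hold points on both sides of 0.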

How the data were processed

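RNA of MRC5 fibroblasts was labelled with Cy3 from an oligo-dT primer and hybridised to 24 single-color Agilent arrays. The authors deposited scanner files, in which each spot has a processed signal intensity from Feature Extraction 10.7.3.1, and a log2 table that differed by at most 0.00145 from quantile normalization over all probes. Here log2 intensity was quantile-normalized separately over 17448 mRNA (catalog) and 43911 lncRNA probes after 178 probes marked as outliers were left out. Limma 3.58.1 (R 4.3.3) was fitted over all 8 groups. Dim probes were filtered, so that a test needed the scanner's well-above-background mark in all 3 arrays of 1 or more of the groups compared, with Benjamini-Hochberg adjustment over all probes tested and calls at an adjusted p under 0.05. The number of arrays limits the precision.

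The members and lists were chosen with earlier results of these data known. The genes named were every variant tested and up to 6 called genes of each list. For each contrast, up to 5 called replication-dependent genes with the most negative and the most positive difference were named, among those whose groups did not overlap. Also named were genes known for polyadenylated transcripts or for their roles, of which HIST1H1E and HIST1H2AC were on the array. Others were named after their values were seen, among them HIST1H3C in total RNA, HIST1H3J and HIST2H3A in the shift, members listed in counts, PCNA, RBBP4 and the probes in the dim area. Gene names are those of the array design, and 34 of 36 members matched a RefSeq symbol. A spot was dim where it lay 2 log2 units below the other arrays of its group, and an area was dim where over 25% of the bright spots within 8 rows and columns were. The fit was tested on simulated data. Alternatives changed the normalization, the background correction, the filter on dim probes, the blocks, the groups fitted and the arrays used. The lncRNA probes entered the adjustment of p-values only.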

Additional observations from a re-analysis of the deposited data

Results flagged for a closer look

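For 12 histone probes the high minus untranslated value differed between OS and control by the test of that difference itself (the shift, log2, limma, adjusted p under 0.05), and in each of them it was higher upon OS. Among the replication-dependent genes these were HIST1H2BJ (1.40), HIST1H1D (1.39), HIST1H3C (1.13), HIST1H1E (1.05), HIST1H2AC on its downstream probe A_23_P167983 (1.00), HIST1H2BM (0.96), HIST1H4L (0.73), HIST1H3A (0.69) and HIST1H4B (0.67). Among the variants these were H3F3B (0.87), H3F3A (0.70) and H2AFV on A_23_P145904 (0.70). The calls of HIST1H3A, HIST1H4B and H2AFV held in only 10, 9 and 10 of 26 alternatives.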

How the results depend on the processing

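None of the 101 called values changed sign under any alternative. Scaling to the 75th percentile moved the most values. It called 5 histone probes lower in total RNA and 0 higher and 4 lower in the high pool, moved the variant median in total RNA to 0.13, and moved the replication-dependent median to -1.56 in the untranslated and -1.08 in the low pool. For high against untranslated in control it gave 1 higher call, a replication-dependent median of -3.06 and a variant median of -1.65, with a replication-dependent shift of 0.99. With OS low replicate 3 also left out, chosen after seeing the data, it gave the same 5 calls in number, 0.13, -1.56, -3.06, -1.65 and 0.99, and 21 shift calls. Quantile normalization over all probes and the deposited table gave 5 higher calls for high against untranslated, replication-dependent medians of -2.06 and -2.06, and variant medians of 0.45 and 0.43. The median of all catalog probes there was 0.35, and 1.06 and -0.10 under normalization over all probes and 75th percentile scaling. Without a filter on dim probes there were 6 lower calls in total RNA, 0 higher in the high pool, 1 higher for high against untranslated (variant median 0.23) and 5 in the shift. Requiring signal in every group gave a variant median of -0.20. Fitting only the groups compared called 1 lower in the low pool and 1 higher (HIST1H2AC on A_23_P167983) in the high pool, and leaving OS low replicate 3 out of the whole fit called 4 higher there. Averaging control untranslated replicates 1 and 2, whose labels share 1 base identifier, gave 1 higher call for high against untranslated and 7 in the shift.

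Leaving out 1 array at a time gave 5 to 13 lower calls in total RNA, a variant median of -0.36 to -0.24 in the untranslated pool, 0 to 1 higher calls in the low pool, and 0 to 3 higher and 5 to 9 lower calls in the high pool (replication-dependent median -0.70 to -0.45). It gave 1 to 3 higher calls for high against untranslated and 7 to 13 in the shift. With the replicate number as a block, 99 of the 101 called values stayed called, with 13 lower calls in total RNA and 15 lower calls in the high pool, and with the slide as a block 100 did. Arrays of equal number lay on 1 slide in every group except control untranslated, and the labels say no more of what a number shares. Deviations of same-number arrays correlated at -0.22 to 0.33. Between the control and OS untranslated groups they correlated at -0.21 to -0.01 for equal numbers and at 0.04 to 0.26 for equal slides.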
